A study of Mus musculus with 16 samples.

Results

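The site difference of the paclitaxel response was the change of a gene in treated 4T1 tumors of the liver minus its change in treated 4T1 tumors of the mammary fat pad. It was taken over all 16 of the 16 libraries of the study, and over the 13875 genes whose mean level was at least 1 TPM (a length-scaled share of a library's transcripts) among the 17426 genes listed at both sites. All animals were wild-type female BALB/c mice, 6 weeks old, that received cells of 4T1, an established mouse line of triple-negative breast cancer. The 3 pre_SC and 3 post_SC libraries came from tumors grown after 400000 cells were placed in the fourth mammary fat pad on the right, a site the labels call subcutaneous. The 5 pre_Liver and 5 post_Liver libraries came from tumors grown after 200000 cells were injected below the capsule of the left liver lobe. The effect of site and that of the number of cells injected cannot be told apart. Treated mice were given paclitaxel at 10 mg/kg into the peritoneum on 5 days a week for 2 weeks, and control mice were given PBS. The labels do not say whether "pre" stands for mice sampled before dosing or for these controls. Tumors were taken after 15 days of growth, digested to cell suspensions that hold host as well as tumor cells, and frozen, and poly(A) RNA was sequenced. Nothing in the labels says that the libraries of a group are separate mice, so a p-value here measures the spread between these libraries.

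Paclitaxel binds beta-tubulin and stabilizes microtubules, which holds dividing cells in mitosis. As a cytotoxic drug it also acts on the bone marrow, where neutrophils mature through stages that each make their own granule proteins, and 4T1 tumors are known for driving the release of immature neutrophils into blood, liver and lung. Poorly perfused regions of solid tumors are low in oxygen, and there the hypoxia-inducible factors raise genes of glycolysis, glucose uptake, pH control and collagen hydroxylation. Hepatocytes fill the tissue around a liver tumor and make plasma proteins, major urinary proteins and most drug-oxidizing cytochromes P450.

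The labelled cells were checked against their markers. Epcam, an adhesion protein of epithelial and 4T1 cells, lay between 752 and 1093 TPM in the 6 fat pad libraries, between 22.3 and 422 TPM in pre_Liver and between 84.8 and 693 TPM in post_Liver. Alb, the hepatocyte product albumin, lay between 8231 and 61264 TPM in pre_Liver and between 734 and 21906 TPM in post_Liver, and was at most 4.22 TPM in the fat pad libraries. The liver libraries thus held RNA of liver tissue in shares that differed between libraries. The hepatocyte genes summed to a median of 149340 TPM in pre_Liver (53460 to 212623) and 52478 TPM in post_Liver (6348 to 141689). These ranges overlapped, as did those of Alb, where 2 of 5 treated libraries lay below all untreated ones. The part of this in the results below was not tested beyond the alternatives given beside them. Among these, the mean log2(TPM + 1) of the hepatocyte genes of each library, its hepatocyte score, was fitted as a covariate. The same slope served both sites, although the score was 1.20 to 1.91 in the fat pad libraries and 6.65 to 11.86 in the liver libraries. A response that goes with the score can be partly taken up by this covariate. The 10 skeletal muscle genes summed to 9852 TPM in post_SC 2 and to 105 to 465 TPM in the other 5 fat pad libraries. In bulk RNA, fewer cells of a type and less RNA per cell cannot be told apart. Constants carried by the authors' table of untreated libraries put pre_SC 1 to 3 with pre_Liver 1 to 3 in 1 set and pre_Liver 4 and 5 in another. The set of the treated libraries is not given in the sources used here. Values without pre_Liver 4 and 5 are therefore printed beside the pooled ones.

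The responses of each site and their difference were tested gene by gene. On log2(TPM + 1), with limma and Benjamini-Hochberg adjusted p under 0.05 as the call, the interaction (liver response minus fat pad response) was called for 413 of 13875 genes (2.98%), of which 304 (2.19%) were higher, with the liver response above the fat pad response, and 109 (0.786%) lower. The fat pad response was called for 109 genes (0.786%; 49 up, 0.353%, and 60 down, 0.432%) and the liver response for 2633 genes (19%; 1828 up, 13.2%, and 805 down, 5.8%). Both responses were called for 23 genes, which is 21.1% of the fat pad calls and 0.874% of the liver calls. Sorted by these calls, 13 genes moved in opposite directions, 60 moved in the fat pad only and 280 in the liver only with the sites shown to differ, 60 differed between sites with neither response called, and 10 moved the same way at both sites. A further 26 genes called in the fat pad and 2330 called in the liver had no called interaction, so for them a difference between sites was not shown. No gene was called the same way at both sites with an interaction that was called too. Across all 13875 genes, which are not independent replicates, the responses had a Pearson correlation of -0.02 and 7291 genes (52.5%) had responses of opposite sign. Separation of the treated from the untreated libraries was common with 3 against 3: the fat pad groups did not overlap for 2141 genes higher after treatment (15.4%) and 2551 lower (18.4%), against 699 (5.04%) and 186 (1.34%) in the liver. At both sites at once, 132 genes (0.951%) were separated in opposite directions and 132 (0.951%) in the same direction.

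**Figure D1:**
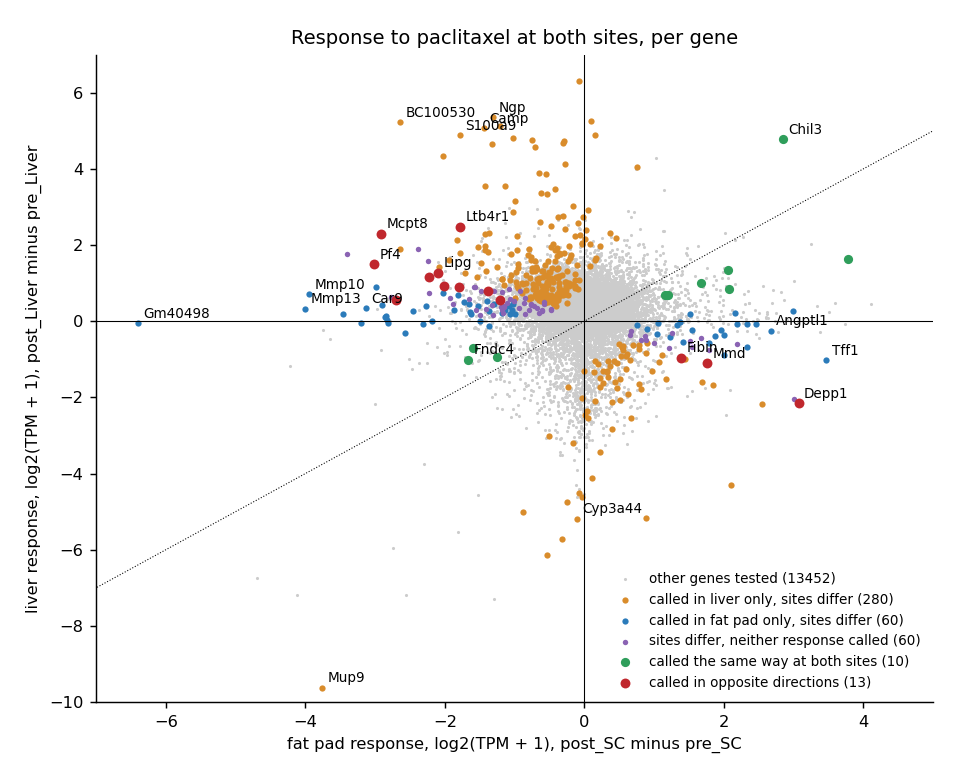
Each point is 1 gene, with its fat pad response (post_SC minus pre_SC, log2(TPM + 1)) on the x axis and its liver response (post_Liver minus pre_Liver, same scale) on the y axis; colors mark the class and the dotted line marks equal responses. The 13 genes called in opposite directions lie in the upper left and lower right of the plot, Chil3 lies far up in the upper right, and Mup9 has the lowest liver response among the genes called in the liver only.

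The scaling, single libraries and the shared estimate of spread bear on every class. The median response of all genes was -0.03 in the fat pad and 0.39 in the liver, and the median interaction was 0.38; scaling by the median of ratios set it to -0.03, turned the interaction split from 73.6% to 58.4% higher (173 higher, 123 lower) and turned the liver split from 1828 up and 805 down to 541 up and 1054 down. Of the 413 genes, 210 were called with the same sign under that scaling, 146 without pre_Liver 4 and 5, and none turned sign under either. Without pre_Liver 4 and 5 the interaction was called for 158 genes (115 higher, 43 lower). The treated libraries post_Liver 2 and 3 were much alike, with 0.706% of genes over 2-fold apart. The other pairs of treated liver libraries had 6.65% to 39.3%. Whether post_Liver 2 and 3 are separate tumors is not stated, and with both averaged into 1 the interaction was called for 260 genes. Leaving out 1 library moved the 413 to between 92 (without pre_SC 3) and 2599 (without pre_Liver 2), and 79 of the 413 were called whichever library was left out: 12 of the 13 opposite, 21 of the 60 fat pad only, 46 of the 280 liver only. All 4 groups shared 1 estimate of the spread, and with each site fitted on its own the fat pad calls were 885 and the liver calls 408, so "in the liver only" and "in the fat pad only" describe what passed the test in the joint fit. Of the genes called in 1 site only, 17 of 211 (8.06%) rising in liver, 18 of 69 (26.1%) falling in liver, 3 of 23 (13%) rising in the fat pad and 6 of 37 (16.2%) falling there had means below 1 TPM in both groups of the other site, where log2(TPM + 1) leaves little room to fall.

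**Figure D2:**
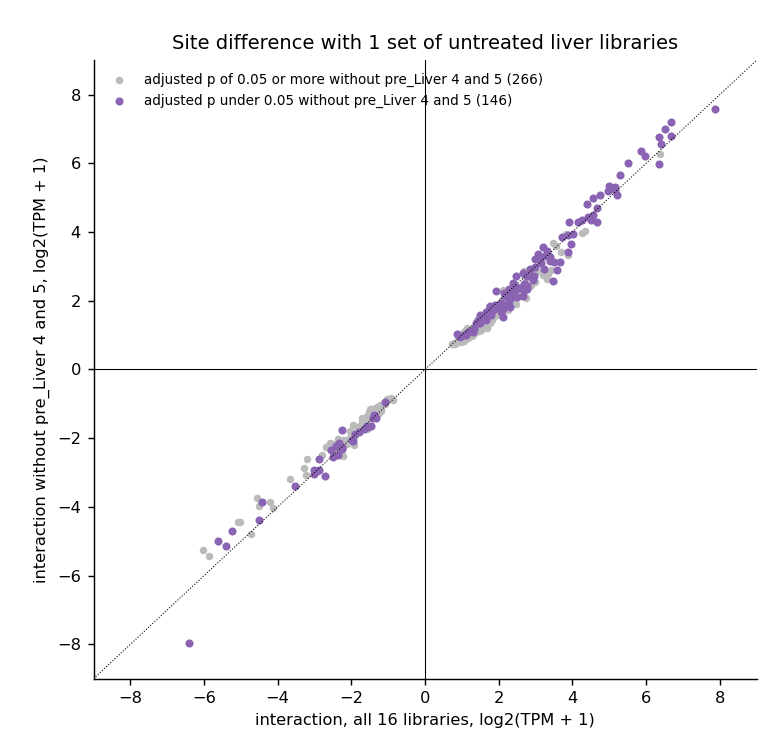
Each point is 1 of 412 genes called in the interaction, with its interaction over all 16 libraries (x axis) and without pre_Liver 4 and 5 (y axis), both in log2(TPM + 1); purple marks an adjusted p under 0.05 in the smaller fit. The sign is the same for all 412 plotted genes, 146 are still called, and 330 have a smaller absolute interaction in the smaller fit.

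Among the opposite genes, 3 (0.0216% of genes tested) rose in the fat pad and fell in the liver: Depp1, Mmd and Fibin. Depp1, an autophagy regulator induced by FOXO factors and by fasting (chromosome 6, 116650609 to 116652794 of GRCm38, plus strand), was at 3.73, 3.73 and 5.81 TPM in pre_SC and at 15.5, 93.6 and 56.9 TPM in post_SC. In the liver it was at 26.2, 24.8, 33.1, 61.5 and 80.6 TPM before and at 8.23, 9.79, 16.9, 7.06 and 3.74 TPM after. The groups did not overlap at either site: every untreated fat pad library lay below every untreated liver library, whereas 2 of the 3 treated fat pad libraries lay above all treated liver libraries. Its response was 3.07 ± 0.60 (SE) in the fat pad and -2.16 ± 0.47 in the liver, an interaction of -5.23 ± 0.76 (limma adjusted p = 0.00491), and -4.71 without pre_Liver 4 and 5 (limma adjusted p = 0.00934).

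Mmd, a membrane protein of the progestin and adipoQ receptor family first described in maturing macrophages (chromosome 11, 90249456 to 90278589, plus strand), was at 96.3, 95.8 and 52.9 TPM in pre_SC and 235, 266 and 314 TPM in post_SC. It was at 114, 94.7, 134, 101 and 109 TPM in pre_Liver and 51.4, 32.2, 41.7, 57.8 and 82.3 TPM in post_Liver. Every treated fat pad library lay above every untreated one and every treated liver library below. The interaction was -2.87 ± 0.38 (limma adjusted p = 0.00291). Fibin, a secreted protein of embryonic fin and limb buds, went from 2.4, 5.93 and 3.9 TPM to 10.9, 10.9 and 13.7 TPM in the fat pad. It was at most 2.37 TPM in the liver libraries, so the liver values behind its interaction of -2.35 ± 0.38 (limma adjusted p = 0.00762) were low.

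The other 10 opposite genes (0.0721%) fell in the fat pad and rose in the liver, and 3 of those with the largest interaction are made by blood cells. Mcpt8, a serine protease of basophil granules (chromosome 14, 56082166 to 56085273, minus strand), was at 14.4, 12.9 and 31.9 TPM in pre_SC and 2.82, 1.1 and 1.04 TPM in post_SC. In the liver it was at 3.89, 3.19, 2.74, 4.25 and 1.14 TPM before and 20.2, 28.9, 28, 19.6 and 5.58 TPM after. The groups did not overlap at either site, and treated liver tumors ended near the level of untreated fat pad tumors, with post_Liver 5 well below the other 4. The interaction was 5.22 ± 0.66 (limma adjusted p = 0.00254) and 5.08 without pre_Liver 4 and 5 (limma adjusted p = 0.00476).

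Pf4, the platelet factor 4 chemokine of platelet granules that macrophages also make (chromosome 5, 90772435 to 90773383, plus strand), was at 17.5, 40.6 and 68.8 TPM in pre_SC and 4.26, 4.26 and 2.67 TPM in post_SC. In pre_Liver it was at 16.9, 6.71, 9.72, 8.33 and 6.75 TPM. In post_Liver it was at 23.9, 22.8, 26.7, 37.3 and 29.7 TPM. Its groups did not overlap at either site, and the fat pad response of -3.01 ± 0.41 was the larger of its 2 responses (liver 1.50 ± 0.32; interaction 4.51 ± 0.52, limma adjusted p = 0.00108). Ltb4r1, the high-affinity leukotriene B4 receptor that draws neutrophils to inflamed tissue (chromosome 14, 55765962 to 55768494, plus strand), was at 4.39, 4.84 and 10.8 TPM in pre_SC and 1.33, 0.871 and 1.07 TPM in post_SC. Untreated liver tumors had 4.01, 4.16, 2.07, 5.62 and 2.75 TPM. Treated liver tumors had 34.4, 31.1, 17.4, 29.9 and 15.3 TPM. The untreated ranges of the 2 sites overlapped, whereas every treated liver library lay above every treated fat pad library. The interaction was 4.27 ± 0.47 (limma adjusted p = 0.000879).

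Ifitm1, an interferon-induced membrane protein, had an interaction of 3.39 ± 0.50 (limma adjusted p = 0.00545), with 102 to 199 TPM before and 19.4 to 52.5 TPM after in the fat pad and 47.3 to 88.3 TPM before and 88.5 to 228 TPM after in the liver. Lipg, the endothelial lipase that hydrolyzes lipoprotein phospholipids, had 3.37 ± 0.52 (limma adjusted p = 0.00642). Its liver groups touched, since 4 of 5 treated libraries lay above all untreated ones. Reg3g, a secreted antibacterial lectin, had 3.26 ± 0.31 (limma adjusted p = 0.000289) and was listed at 0 in all 3 post_SC libraries and at no more than 0.822 TPM in any liver library; without pre_SC 3 its mean fell under the filter and it was not tested. The remaining opposite genes were Ago2, Cnnm2, Hk3 and S100a7a, named here because they complete the class. All 13 opposite genes were still called in the interaction without pre_Liver 4 and 5 and under the median of ratios, and 12 of 13 whichever library was left out. Having both responses called was less stable: under the median of ratios 2 of the 13 still met the opposite rule, and without pre_Liver 4 and 5 also 2. Leaving out 1 library gave between 1 (without post_SC 3 or without pre_SC 3) and 31 (without pre_Liver 2) opposite genes.

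**Figure D3:**
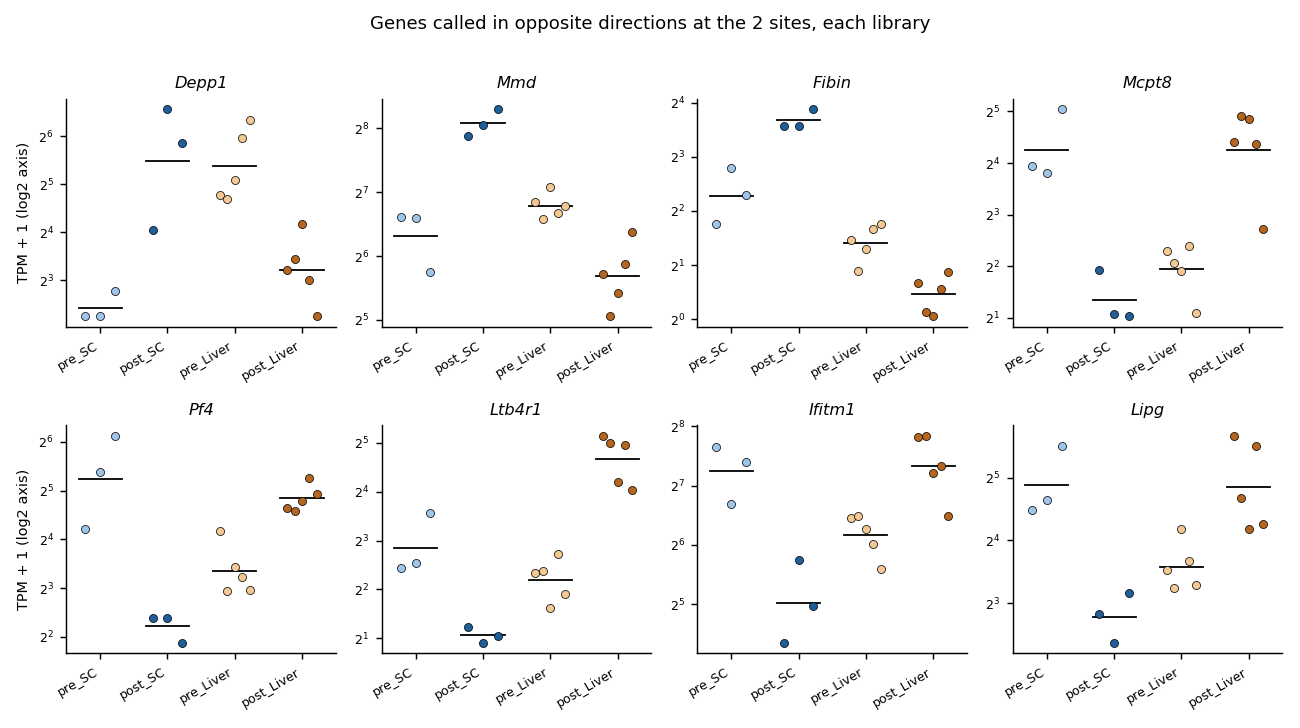
TPM + 1 on a log2 axis for 8 genes called in opposite directions, with 1 point per library (3 pre_SC, 3 post_SC, 5 pre_Liver, 5 post_Liver) and a line at the group's geometric mean of TPM + 1. Depp1, Mmd and Fibin go up in the fat pad and down in the liver, the other 5 go down in the fat pad and up in the liver, and the liver groups overlap for Lipg.

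The 211 genes that rose in the liver only (1.52%) were led by neutrophil genes: 22 of them are in the 3 neutrophil lists, which hold 36 of the 13875 genes tested. These lists were written with earlier results of these data known, so the share describes the class and is no test of it. The list named for primary granules, made at the promyelocyte stage, also holds the factor Cebpe, the precursor marker Ms4a3 and Prss34, a protease known from basophils and mast cells. All its 9 tested genes rose in the liver, none was called in the fat pad, and 8 were higher in the interaction (median responses -0.42 in the fat pad and 4.12 in the liver, median interaction 4.41 beside 0.38 for all genes; 8 without pre_Liver 4 and 5 as well). With the hepatocyte score as a covariate, 8 of the 9 were higher as well (median interaction 4.51). Of 16 genes of mature neutrophils and calprotectin, 13 rose in the liver and 11 were higher in the interaction (median 3.18), and 6 to 14 were when 1 library was left out, the fewest without pre_SC 3. Of 12 genes for secondary and tertiary granules, 9 rose in the liver, 1 in the fat pad, and 4 were higher in the interaction (median 2.08), with 3 to 7 when 1 library was left out and 3 without pre_SC 1.

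Promoters of 2 of these genes are printed because a C/EBP word, bound by the factors that drive granule genes, was searched in them. The word TTGCNNAA was read on both strands of the 250 bases before the start, with overlaps counted once per position. It was found in 5 of 20 liver-only neutrophil genes that matched the RefSeq table (of 22), or 25%, and in 9.56% of all 32851 promoters of that table (GRCm38.p6). The set was counted by gene, whereas the 32851 promoters belong to 27025 genes. The 5 were Fcnb, Ly6g, Mmp8, Ngp and S100a9. The granule genes Elane, Mpo, Prtn3, Ctsg and Camp had no match. Capitals mark the matches, and neither window overlaps an annotated exon; a match describes the letters and not a bound site.
S100a9 (chr3:90695722-90695971, minus strand): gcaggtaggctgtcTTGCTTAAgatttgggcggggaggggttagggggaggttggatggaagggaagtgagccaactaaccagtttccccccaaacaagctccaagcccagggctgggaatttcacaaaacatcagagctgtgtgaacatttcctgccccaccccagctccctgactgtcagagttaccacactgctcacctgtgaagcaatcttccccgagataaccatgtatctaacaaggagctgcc
Mmp8 (chr9:7558179-7558428, plus strand): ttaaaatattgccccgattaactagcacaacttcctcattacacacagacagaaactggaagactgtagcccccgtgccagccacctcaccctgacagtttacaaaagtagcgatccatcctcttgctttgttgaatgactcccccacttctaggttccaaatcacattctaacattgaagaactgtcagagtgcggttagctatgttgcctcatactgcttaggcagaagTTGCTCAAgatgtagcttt

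S100a9, a subunit of calprotectin, the zinc-binding protein that fills the neutrophil cytosol, was at 39.6, 126 and 140 TPM in pre_SC and 25.1, 19 and 32.7 TPM in post_SC. The pre_Liver libraries had 123, 167, 62.9, 421 and 40.9 TPM, and the post_Liver libraries had 3343, 8871, 6135, 3309 and 891 TPM. The groups did not overlap at either site, but only the liver response (4.89 ± 0.65) was called, and the interaction was 6.68 ± 1.06 (limma adjusted p = 0.007; 6.79 without pre_Liver 4 and 5). Camp, the cathelicidin antimicrobial peptide of secondary granules (chromosome 9, 109847379 to 109849617, minus strand), was at 0.697, 4.95 and 4.02 TPM in pre_SC and 0.319, 0.17 and 0.652 TPM in post_SC. Liver levels were 15.9, 12.9, 8.9, 69.7 and 13.2 TPM before and 476, 1116, 883, 684 and 307 TPM after. Camp thus stood above the fat pad level in every liver library, treated or not, and its interaction was 6.51 ± 0.82 (limma adjusted p = 0.00254; 7.01 without pre_Liver 4 and 5).

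Ngp, the neutrophilic granule protein, had an interaction of 6.66 ± 1.19 (limma adjusted p = 0.0113), with 26.3 to 339 TPM before and 1031 to 4447 TPM after in the liver and at most 22.9 TPM in the fat pad. Elane, the neutrophil elastase of primary granules, had 5.51 ± 0.90 (limma adjusted p = 0.00762), with 6.55 to 61 TPM before and 135 to 647 TPM after in the liver and at most 2.55 TPM in the fat pad. Ctsg (cathepsin G), Ms4a3 (a marker of granulocyte-monocyte precursors), Fcnb (ficolin B) and Cd177 (a neutrophil adhesion antigen) had interactions of 5.85, 5.02, 4.40 and 5.00. Each of these 6 genes had liver groups apart, higher after treatment, as had 5.04% of all genes, and overlapping fat pad groups. Each was called whichever library was left out. Elane, Ms4a3, Fcnb and Cd177 were below 3 TPM in every pre_SC library, so the scale could show little fall there.

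The stefin A genes, cathepsin inhibitors of myeloid cells that lie as near-identical copies on chromosome 16, rose as well, and reads may be split among them. BC100530 had the largest interaction of the liver-only genes that rose, 7.87 ± 1.49 (limma adjusted p = 0.0146), Stfa2 had 6.40 ± 1.18 (limma adjusted p = 0.0129), and Stfa3 had 6.38 ± 1.48 (limma adjusted p = 0.0349; 0.101 without pre_Liver 4 and 5, and lost in 10 of the 16 fits without 1 library). pre_SC 3 stood apart here, with 199 TPM of BC100530 and 83.3 TPM of Stfa3 against 3.77 and 11.1 TPM and against 0.513 and 1.44 TPM in the other pre_SC libraries. Gm5483, another member of that cluster, had 5.15 ± 1.02 and lost its call without pre_SC 2 (0.0548), pre_SC 3 (0.0593) and post_SC 3 (0.0509, limma adjusted p). Ly6g, the surface antigen by which mouse neutrophils are sorted, had 2.69 ± 0.62 (limma adjusted p = 0.0349; 0.0616 without pre_Liver 4 and 5, and lost in 8 of 16 fits without 1 library). Fpr2, a formyl peptide receptor, had 3.40 ± 0.62 (limma adjusted p = 0.0121), with 3.9 to 9.8 TPM before and 1.46 to 1.8 TPM after in the fat pad and 5.76 to 18.8 TPM before and 19.9 to 88.3 TPM after in the liver, so its groups were apart at both sites.

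Transcription factors and lipid mediators of the same cells were taken as 2 further lists, which were added after values had been seen. Of 11 myeloid transcription factors, 8 rose and 1 fell in the liver, none was called in the fat pad, and 5 were higher in the interaction (median 1.36). Cebpe, the C/EBP factor needed for secondary granules, was at 0.223 to 5.2 TPM in pre_Liver, 11.2 to 46.2 TPM in post_Liver and at most 1.13 TPM in the fat pad (interaction 3.89 ± 0.69, limma adjusted p = 0.011). Gfi1, a repressor needed for granulocyte maturation, had 2.05 ± 0.36 (limma adjusted p = 0.011), and Spi1, the PU.1 factor of myeloid cells, had 1.86 ± 0.36 (limma adjusted p = 0.0179; 0.0512 without pre_SC 2). Nfe2, a factor of platelet-forming and red cell lineages, had 2.98 ± 0.59 (limma adjusted p = 0.0188) and lost its call without pre_SC 2 (0.0546), pre_SC 3 (0.0671) and post_SC 1 (0.0505).

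Of 8 leukotriene genes, 4 rose in the liver, 1 fell in the fat pad and 3 were higher in the interaction (median 1.10): the receptor Ltb4r1 described above, Alox5ap and Lta4h. Alox5ap, which presents arachidonic acid to 5-lipoxygenase, was at 39.6, 41.2 and 40.8 TPM in pre_SC and 40.9, 43 and 39.2 TPM in post_SC. In the liver it was at 58.8, 48.9, 26, 42.4 and 17.2 TPM before and 277, 195, 166, 237 and 113 TPM after. The fat pad groups overlapped within a few TPM and the liver groups were apart (interaction 2.37 ± 0.48, limma adjusted p = 0.021), although 5 of 16 fits without 1 library, those without pre_SC 1, 2 or 3 or post_SC 1 or 3, lost the call, with adjusted p up to 0.0645. Lta4h, the hydrolase that makes leukotriene B4, had 1.50 ± 0.31 (limma adjusted p = 0.0224), and 4 such fits lost it. Without pre_Liver 4 and 5, Lta4h (0.0681) was no longer called.

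Mast cells and basophils store histamine and proteases, and platelets store chemokines. Of 10 mast cell and basophil genes, 6 rose in the liver, 1 fell in the fat pad (Mcpt8) and 3 were higher in the interaction (median 2.92; 1 without pre_Liver 4 and 5, and 1 without pre_SC 3). Hdc, the enzyme that makes histamine, had 2.99 ± 0.59 (limma adjusted p = 0.0184; 0.0575 without pre_Liver 4 and 5), and Mcpt4, a mast cell chymase, had 4.27 ± 1.05 (limma adjusted p = 0.0424; lost in 12 of 16 fits without 1 library). Cpa3, mast cell carboxypeptidase, rose in the liver by 2.44 ± 0.57 with an interaction that did not pass (3.11 ± 0.93, limma adjusted p = 0.0774). Its interaction was called without post_SC 2 (4.14, limma adjusted p = 0.0176) and without pre_Liver 2 (3.16, limma adjusted p = 0.0412). Of 9 platelet and megakaryocyte genes, 7 rose in the liver, 1 fell in the fat pad (Pf4) and 3 were higher in the interaction (median 1.00; 1 under the median of ratios and 1 without pre_SC 1). Besides Pf4 these were Ppbp, the platelet basic protein chemokine (2.48 ± 0.63), and Gp9, a subunit of the von Willebrand receptor (1.48 ± 0.36), each lost in 12 of 16 fits without 1 library. The platelet gene Gp1bb had no called interaction and non-overlapping groups at both sites, higher after treatment. Without pre_Liver 2 its interaction was called (0.952, limma adjusted p = 0.047).

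Granzymes, the proteases of cytotoxic lymphocytes, split between sites without being called in the fat pad. None of 10 granzyme and perforin genes was called there (median -1.65), 2 rose in the liver, and 4 were higher in the interaction (median 2.35; 3 under the median of ratios, 2 without pre_Liver 4 and 5, 1 without post_SC 1). A liver rise was called for 13.2% of all genes and a higher interaction for 2.19%. Gzmc was at 67.2, 82.3 and 50.8 TPM in pre_SC and 20.8, 13.3 and 20 TPM in post_SC. In pre_Liver it was at 1.95, 2.44, 0.67, 0.91 and 0.209 TPM. In post_Liver it was at 8.5, 9.66, 15.1, 4.3 and 6.32 TPM. Its groups were apart at both sites, with every fat pad library above all liver libraries except that post_SC 2 lay below post_Liver 3, and the interaction was 3.96 ± 0.53 (limma adjusted p = 0.00291). Gzmg (5.15 ± 1.03, limma adjusted p = 0.0191; 0.0533 without post_SC 1), Gzmd (3.81 ± 0.87, limma adjusted p = 0.0323) and Gzmf (3.56 ± 0.82, limma adjusted p = 0.0341) lie in the same cluster on chromosome 14 and share sequence, so reads may be split among them; the last 2 were each lost in 8 of 16 fits without 1 library and without pre_Liver 4 and 5 (0.0694 and 0.0913). Gzmb, the main granzyme of cytotoxic T and NK cells, was not called (1.91 ± 0.78, limma adjusted p = 0.156), and of 16 T and NK cell genes none was called by limma in any comparison (median interaction -0.09; 0 with an unadjusted interaction p under 0.05).

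The 37 genes that fell in the fat pad only (0.267%) included genes of glycolysis and of the hypoxia response: 7 of the 37, where these 2 lists hold 36 of the 13875 genes tested. Both lists were also written with earlier results of these data known. Of 16 glycolysis genes, 5 fell in the fat pad, 3 rose in the liver and 8 were higher in the interaction (medians -1.20, 0.57 and 1.67; 5 under the median of ratios, 4 without pre_Liver 4 and 5, 3 without pre_SC 3). Of 20 hypoxia genes, 5 fell in the fat pad, 3 rose in the liver and 5 were higher in the interaction (medians -0.98, 0.52 and 1.06), with 3 without pre_SC 1. Over all genes tested, 0.432% fell in the fat pad, 13.2% rose in the liver and 2.19% were higher in the interaction. The liver rises of both lists thus lay near the share of all genes. Every one of the 20 hypoxia genes had a positive interaction value, as did 15 of the 16 glycolysis genes. The median of all genes was above 0 too, at 0.38. Under the median of ratios, the median interaction was 0.61 for the hypoxia list and 1.21 for the glycolysis list, beside -0.03 for all genes.

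The hypoxia response element core, ACGTG or GCGTG, is the word that hypoxia-inducible factors bind, and the promoters of 2 of the 7 genes are printed to show where it stands. It was read on both strands in the 250 bases before the start. It was found in 5 of the 6 genes that matched the RefSeq table (83.3%, GRCm38.p6) and in 38.6% of all 32851 promoters. The set was counted by gene, whereas the 32851 promoters belong to 27025 genes. The 6 genes were taken from the glycolysis and hypoxia lists, so their share describes these genes and is no test of the fat pad class. Capitals mark the matches, neither window overlaps an annotated exon, and a match says nothing of binding in these tumors.
P4ha1 (chr10:59323046-59323295, plus strand): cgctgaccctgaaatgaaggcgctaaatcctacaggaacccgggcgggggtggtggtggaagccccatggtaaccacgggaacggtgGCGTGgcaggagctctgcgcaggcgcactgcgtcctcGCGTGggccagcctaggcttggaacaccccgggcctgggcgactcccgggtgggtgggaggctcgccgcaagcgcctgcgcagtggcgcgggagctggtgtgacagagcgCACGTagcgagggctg
Pgam1 (chr19:41911621-41911870, plus strand): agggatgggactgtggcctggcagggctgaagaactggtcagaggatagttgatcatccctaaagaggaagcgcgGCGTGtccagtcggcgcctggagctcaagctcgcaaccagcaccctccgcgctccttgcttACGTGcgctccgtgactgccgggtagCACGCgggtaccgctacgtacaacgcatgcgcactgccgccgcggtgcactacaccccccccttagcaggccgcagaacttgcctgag

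P4ha1, the collagen prolyl hydroxylase subunit, was at 151, 150 and 136 TPM in pre_SC and 32.4, 32.1 and 41 TPM in post_SC. Untreated liver tumors had 68.4, 50.1, 39.3, 35.3 and 23.4 TPM. Treated liver tumors had 83.1, 44.6, 54.3, 66.2 and 113 TPM. Untreated fat pad tumors stood above all other libraries, treated ones came down to the range of untreated liver tumors, and the liver groups overlapped. The interaction was 2.76 ± 0.44 (limma adjusted p = 0.00716; 2.44 and 0.0117 without pre_Liver 4 and 5). Pgam1, the phosphoglycerate mutase of glycolysis, was at 720, 775 and 780 TPM in pre_SC and 282, 289 and 305 TPM in post_SC, and at 329 to 485 TPM before and 402 to 588 TPM after in the liver, with an interaction of 1.64 ± 0.25 (limma adjusted p = 0.0061).

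Pfkl, the liver-type phosphofructokinase (chromosome 10, 77986947 to 78010083, minus strand), was at 182, 206 and 180 TPM in pre_SC and 49.1, 57.5 and 62.8 TPM in post_SC. The pre_Liver libraries had 103, 83.1, 63, 44.8 and 43.6 TPM, and the post_Liver libraries had 113, 91, 86, 66.3 and 102 TPM. The fat pad groups were far apart and the liver groups overlapped, with pre_Liver 4 and 5 the lowest of the liver libraries. The interaction was 2.23 ± 0.36 (limma adjusted p = 0.00762; 1.88 without those libraries). Ero1l, the oxidase that forms disulfide bonds in the endoplasmic reticulum, followed the same order (2.49 ± 0.42, limma adjusted p = 0.00826). Car9, the carbonic anhydrase of hypoxic tumor cells, was at 126, 113 and 125 TPM in pre_SC and 15, 6.67 and 21.1 TPM in post_SC. Liver levels were 38.3, 13.3, 14.9, 4.77 and 2.18 TPM before and 12.9, 20, 11, 9.74 and 13.5 TPM after. Its fat pad response of -3.13 ± 0.67 was the steepest among the 7 genes, but the interaction (3.48 ± 0.85, limma adjusted p = 0.0415) was lost in 12 of 16 fits without 1 library, with adjusted p up to 0.115.

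The glucose transporter Slc2a1 (2.66 ± 0.52, limma adjusted p = 0.0181; 0.0617 without pre_SC 3 and 0.0532 without post_SC 1) and the lactate exporter Slc16a3 (2.70 ± 0.48, limma adjusted p = 0.0114) differed between sites too. Slc16a3 had a called rise in the liver, 1.16 ± 0.30, as had Pfkfb4, a regulator of glycolytic flux (1.31 ± 0.22), and Ndrg1, a stress-induced protein (1.32 ± 0.41). All 3 had lower values in every post_SC library than in any pre_SC library, as had 18.4% of all genes, and the Ndrg1 interaction was lost in 13 of 16 fits without 1 library and without pre_Liver 4 and 5 (limma adjusted p = 0.0701).

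Matrix metalloproteinases cut collagen and other matrix proteins. Of 11 genes of the list, 4 fell in the fat pad, 2 rose in the liver and 3 were higher in the interaction (median 1.90; none without pre_SC 3, and 2 under the median of ratios and without pre_Liver 4 and 5). The shares of all genes were 0.432% falling in the fat pad, 13.2% rising in the liver and 2.19% higher in the interaction. Mmp13, a collagenase, was at 1021, 169 and 1019 TPM in pre_SC and 19.8, 28.7 and 68.4 TPM in post_SC. It was at 4.47 to 13.2 TPM before and 5.71 to 37.6 TPM after in the liver. Its interaction was 4.33 ± 0.90 (limma adjusted p = 0.0221), lost without pre_SC 1 (0.0711), pre_SC 3 (0.0802) and post_SC 1 (0.0701) and without pre_Liver 4 and 5 (0.0703). Mmp10, a stromelysin, went from 265, 67.7 and 219 TPM to 3.66, 10 and 20.2 TPM in the fat pad. It was at most 8.89 TPM in the liver (4.67 ± 0.86, limma adjusted p = 0.0129; 0.0513 without pre_SC 3). Mmp8, the neutrophil collagenase whose promoter is printed above, was the third: it was at 1.02 to 22.4 TPM before and 20 to 149 TPM after in the liver (4.55 ± 1.03, limma adjusted p = 0.0325; lost in 10 of 16 fits without 1 library). Mmp12, the macrophage elastase, fell in the fat pad by 3.64 ± 0.67 without a called interaction (limma adjusted p = 0.0565). Its interaction was called without pre_Liver 1 or 2 and without post_Liver 2, 4 or 5 (limma adjusted p from 0.0326 to 0.048).

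The other genes that fell in the fat pad only were of several kinds. Gm40498, a gene model of unknown role, went from 129, 126 and 172 TPM to 0.113, 0 and 3.2 TPM in the fat pad. It was at most 5.63 TPM in the liver (interaction 6.35 ± 0.86, limma adjusted p = 0.00313). The gene models Gm40991 (3.65 ± 0.61) and Gm43305 (3.87 ± 0.82; lost in 5 of 16 fits without 1 library) fell in the fat pad too. Crabp1, a cytosolic binder of retinoic acid, went from 250, 68 and 288 TPM to 13.4, 19 and 21.4 TPM and was at most 0.147 TPM in all 10 liver libraries, so its interaction of 3.16 ± 0.49 (limma adjusted p = 0.00642) was a fat pad response with hardly any liver level to compare. Il1b, the interleukin 1 beta cytokine, was at 88, 90.1 and 82.5 TPM in pre_SC and 15.5, 9.54 and 17.6 TPM in post_SC. In the liver it was at 12.7 to 59.7 TPM before and 18.2 to 32 TPM after, and its interaction of 2.26 ± 0.54 (limma adjusted p = 0.0406) was lost in 12 of 16 fits without 1 library and without pre_Liver 4 and 5 (0.0529).

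The 23 genes that rose in the fat pad only (0.166%) were led by Tff1, a trefoil peptide of mucous and estrogen-responsive epithelium. It was at 0, 0.408 and 0.22 TPM in pre_SC and 12.9, 14.6 and 9.76 TPM in post_SC. In the liver it was at 3.96, 1.39, 9.75, 4.87 and 5.56 TPM before and 0.843, 0.825, 1.47, 1.29 and 6.23 TPM after. Tff1 was all but absent from untreated fat pad tumors, and in the liver 3 of 5 treated libraries lay below all untreated ones without a call. The interaction was -4.50 ± 0.65 (limma adjusted p = 0.00491; -4.38 without pre_Liver 4 and 5). Rab17, a trafficking GTPase of polarized epithelial cells, went from 0.738, 2.02 and 1.38 TPM to 7.38, 10.6 and 15.3 TPM in the fat pad. Its liver levels were 9.44 to 18.6 TPM before and 6.19 to 12.6 TPM after (-3.01 ± 0.40, limma adjusted p = 0.00291).

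Of the 23 genes, 1 (Cldn5) is in the pan-endothelial list. Clec14a, an endothelial lectin of sprouting vessels, was at 1.03, 1.4 and 1.46 TPM in pre_SC and 8.74, 5.96 and 10.2 TPM in post_SC. It was at 3.99 to 10.8 TPM before and 1.34 to 6.22 TPM after in the liver (-2.88 ± 0.53, limma adjusted p = 0.0129). Angptl1, a secreted angiopoietin-like protein, went from 0.41, 0 and 0.659 TPM to 6.56, 7.12 and 8.8 TPM in the fat pad. It was at most 0.681 TPM in the liver (-2.92 ± 0.29, limma adjusted p = 0.000289). Tmem100, a membrane protein induced by BMP signalling in endothelium, went from 1.09, 1.44 and 2.1 TPM to 11.5, 17.7 and 10.3 TPM in the fat pad and stayed between 0.385 and 1.33 TPM in all liver libraries (-2.54 ± 0.35, limma adjusted p = 0.00358). For Angptl1 and Tmem100 the untreated levels of both sites were near the low end of the scale. A rise could be seen from there, whereas a fall in the liver would have been hard to see. Tnfrsf19, a TNF receptor family member of epithelial progenitors, rose by 2.99 ± 0.45 in the fat pad (-2.73 ± 0.57, limma adjusted p = 0.0221) and lost its call without pre_SC 1 (0.0688), pre_SC 3 (0.0759) and post_SC 1 (0.0692).

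Of the 14 genes of the pan-endothelial list, 2 rose in the fat pad, 2 fell in the liver and 2 were lower in the interaction (medians 1.01, -0.30 and -1.41); 13 of the 14 had a negative interaction value. Among all genes, 0.353% rose in the fat pad, 5.8% fell in the liver and 0.786% were lower in the interaction. The median of ratios gave 4 lower, and leaving out 1 library gave 0 to 6, with none without pre_SC 1. Cldn5, the claudin of endothelial tight junctions, was at 5.85, 9.77 and 4.57 TPM in pre_SC and 25, 24.4 and 36.1 TPM in post_SC, and at 13.2 to 17.4 TPM before and 7.41 to 26.2 TPM after in the liver (-2.19 ± 0.46, limma adjusted p = 0.0227; 0.0678 without pre_Liver 4 and 5, and lost in 4 of 16 fits without 1 library). Robo4, an endothelial guidance receptor, had -2.12 ± 0.47 (limma adjusted p = 0.0286; 0.0701 without pre_Liver 4 and 5, and lost in 5 such fits). The angiopoietin receptor Tek fell in the liver by 1.14 ± 0.33 and the sialomucin Emcn rose in the fat pad by 1.50 ± 0.29, both without a called interaction (limma adjusted p = 0.0668 and 0.0671). Without pre_Liver 2 both were called (limma adjusted p = 0.0294 and 0.0372). Tek was also called without post_Liver 4 (0.0257) and Emcn without post_Liver 5 (0.0431).

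**Figure D4:**
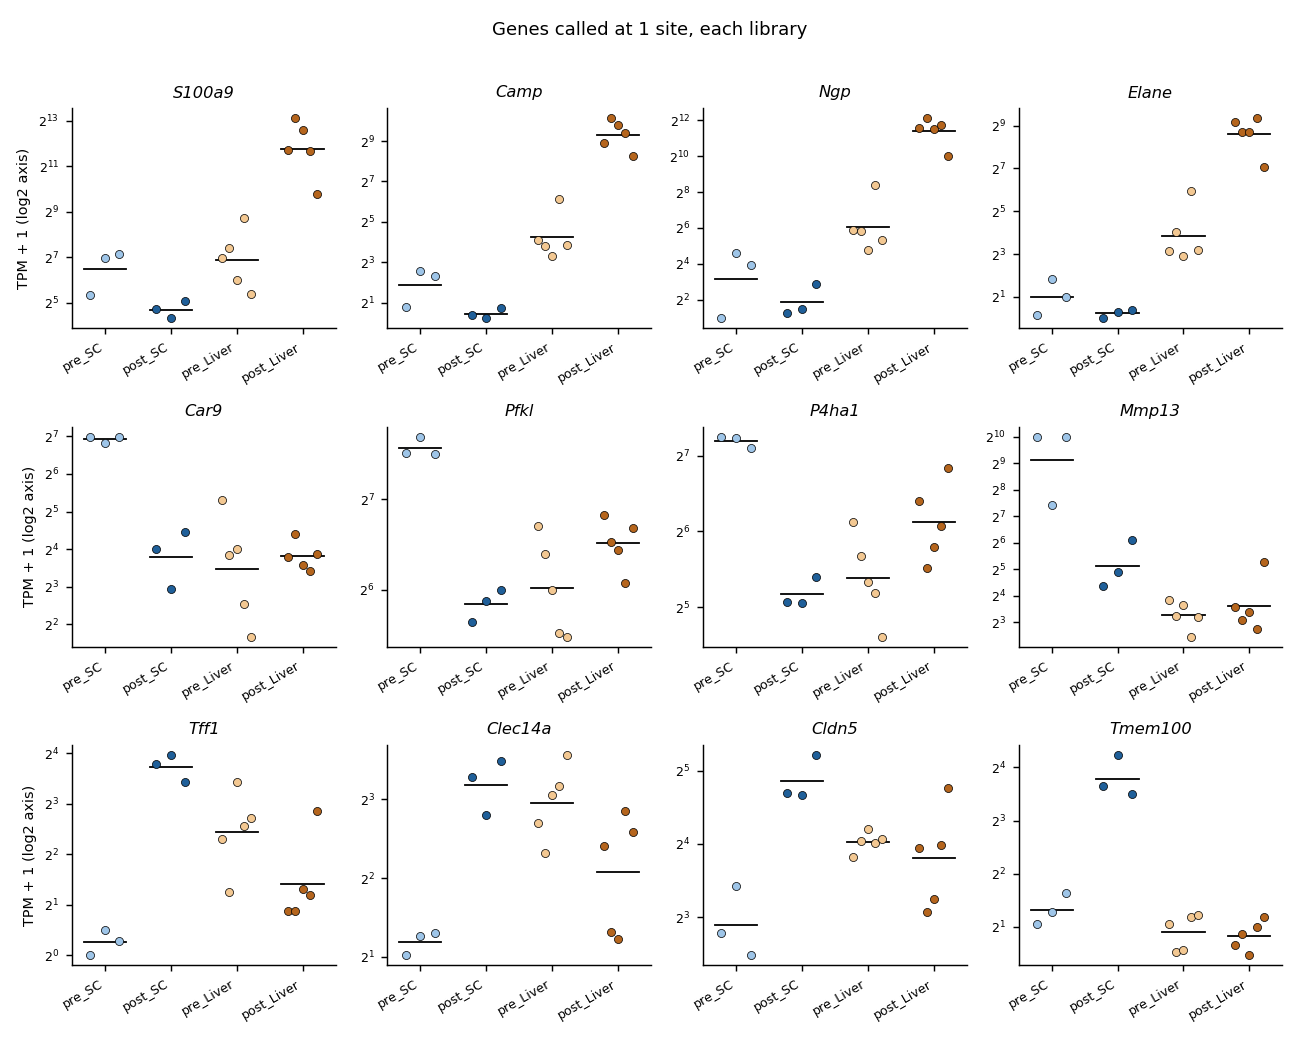
TPM + 1 on a log2 axis for 12 genes called at 1 site, with 1 point per library and a line at the group's geometric mean of TPM + 1. The top row (S100a9, Camp, Ngp, Elane) rises in post_Liver, the middle row (Car9, Pfkl, P4ha1, Mmp13) falls from pre_SC to post_SC, and the bottom row (Tff1, Clec14a, Cldn5, Tmem100) rises from pre_SC to post_SC.

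The 69 genes that fell in the liver only (0.497%) included products of hepatocytes, and 18 of the 69, as given above, were below 1 TPM in the fat pad. Of 6 major urinary protein genes tested, all 6 fell in the liver (median -7.20) and 2 were lower in the interaction. Their copies are near-identical and single values are uncertain. Mup3 was at 1451, 549, 2050, 2074 and 1642 TPM in pre_Liver and 11.3, 12, 8.89, 93.4 and 90.6 TPM in post_Liver, and at most 0.519 TPM in the fat pad (-5.40 ± 0.99, limma adjusted p = 0.0129). Mup-ps12 had -5.62 ± 0.95 (limma adjusted p = 0.0085). Mup9 fell by 9.62 ± 0.75 in the liver, from between 704 and 6460 TPM to at most 17.9 TPM. Its interaction of -5.87 ± 1.22 (limma adjusted p = 0.0221) was lost in 4 of 16 fits without 1 library and without pre_Liver 4 and 5 (0.0746). Mup9 was lower in the fat pad too, without a call: 10.5, 6.14 and 35.3 TPM in pre_SC and 0, 0 and 0.211 TPM in post_SC. These groups did not overlap, as for 18.4% of all genes, and the floor left no room for a larger fall. In the liver libraries Alb fell by 2.69 ± 0.89 with an interaction that did not pass (-2.70 ± 1.45, limma adjusted p = 0.245).

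Of 30 hepatocyte genes, 12 fell in the liver and 1 was lower in the interaction (median -2.08; none under the median of ratios or without pre_Liver 4 and 5), and of 17 cytochrome P450 genes 11 fell in the liver and none was called in the interaction by limma (median -2.80; 7 with an unadjusted p under 0.05; 0 to 5 when 1 library was left out). With the hepatocyte score as a covariate, the median interaction of the P450 genes was -0.64 and 4 were called lower. Hepatocytes make most of these P450s too, so the smaller median partly follows from the choice of score and is no test. Cyp3a44, a steroid- and drug-oxidizing P450 (-5.08 ± 1.16, limma adjusted p = 0.0325), and Inmt, a methyltransferase of indolamines (-6.04 ± 1.38, limma adjusted p = 0.0327), each lost the call in 11 of 16 fits without 1 library and without pre_Liver 4 and 5 (0.103 for both). Rnf186, a ubiquitin ligase of gut and liver epithelium, was at 3.47 to 8.51 TPM before and 0.294 to 1.01 TPM after in the liver and at most 0.214 TPM in the fat pad (-1.98 ± 0.33, limma adjusted p = 0.00796). The gene model Gm44805 was at 135, 70, 160, 9.7 and 4.48 TPM in pre_Liver, where libraries 4 and 5 stood apart, and at most 6.95 TPM in post_Liver (-6.41 ± 1.43, limma adjusted p = 0.0306; -7.97 and 0.0028 without pre_Liver 4 and 5; lost in 8 of 16 fits without 1 library).

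Only 10 genes were called the same way at both sites, 7 up (0.0505%) and 3 down (0.0216%). Chil3, the chitinase-like lectin of alternatively activated macrophages and immature neutrophils, was at 0.39, 1.96 and 4.1 TPM in pre_SC and 28.1, 19.7 and 11.9 TPM in post_SC. In pre_Liver it was at 8.19, 3.05, 6.09, 15.2 and 5.75 TPM. In post_Liver it was at 375, 145, 86.3, 257 and 356 TPM. It rose by 2.84 ± 0.61 and by 4.77 ± 0.47, without overlap at either site, and the interaction did not pass (1.93 ± 0.77, limma adjusted p = 0.148). Chil3 is the 1 gene of the secondary and tertiary granule list that was called in the fat pad.

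Trp53inp1 and Sesn1, both induced by p53, the tumor suppressor that answers DNA damage, were in this class. Trp53inp1, a nuclear partner of p53, was at 7.77, 6.7 and 7.57 TPM in pre_SC and 22, 31 and 58.3 TPM in post_SC. In the liver it was at 15.4, 16.1, 16.1, 25.4 and 32.2 TPM before and 34.2, 31.8, 25.8, 57.6 and 41.2 TPM after, with overlap (2.08 ± 0.36 and 0.84 ± 0.28; interaction -1.24 ± 0.46, limma adjusted p = 0.124). Sesn1, a sestrin, rose by 1.16 ± 0.20 and 0.69 ± 0.15. Of 17 p53 targets, 2 rose in the fat pad, 5 in the liver and none was called in the interaction (median 0.69; limma; 3 with an unadjusted p under 0.05), with at most 1 called when 1 library was left out. Among all genes, 0.353% rose in the fat pad and 13.2% in the liver. The cell cycle inhibitor Cdkn1a was called at neither site (-0.28 ± 0.48 and 1.04 ± 0.37).

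The other genes up at both sites were Alox12e, an epidermal lipoxygenase (3.77 ± 0.70 and 1.63 ± 0.54), Sparcl1, a matrix protein of vessels and stroma (2.06 ± 0.45 and 1.36 ± 0.35), Klhl6, a ubiquitin ligase adaptor of lymphoid and endothelial cells (1.68 ± 0.35 and 0.99 ± 0.27), and Tbx2, a T-box factor (1.20 ± 0.26 and 0.70 ± 0.20). Those down at both sites were Fndc4, a secreted anti-inflammatory protein (-1.66 ± 0.24 and -1.01 ± 0.19), Gcat, an enzyme of threonine breakdown (-1.25 ± 0.25 and -0.95 ± 0.20), and Pxdc1 (-1.59 ± 0.31 and -0.72 ± 0.24). Fndc4 and Gcat had no overlap at either site, which held in the same direction for 0.951% of all genes. Which genes were called the same way depended on the scaling: under the median of ratios 8 genes were, none of them among these 10, and without pre_Liver 4 and 5 there were 2, of which 1 was among the 10. Leaving out 1 library gave 0 to 16 same-way genes.

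**Figure D5:**
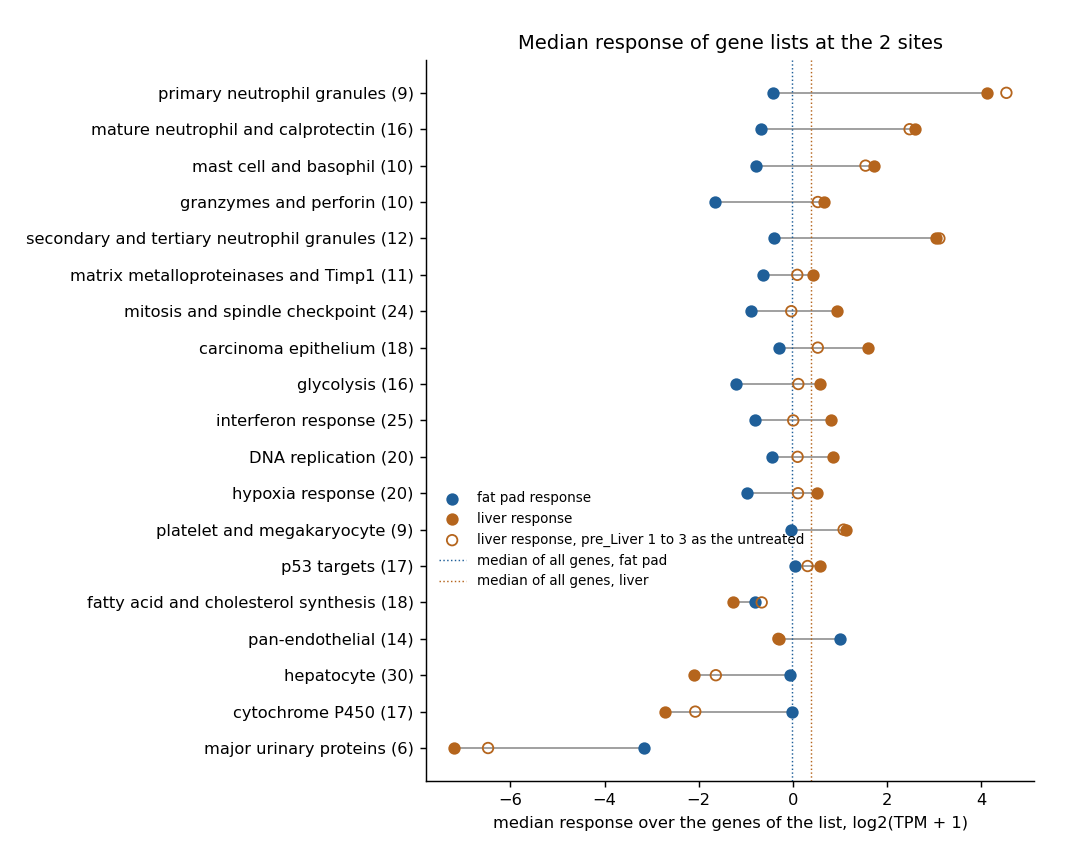
Median response (log2(TPM + 1)) over the genes of each list in the fat pad (blue) and in the liver (brown), with open circles for the liver response against pre_Liver 1 to 3 alone, dotted lines for the medians of all genes (-0.03 and 0.39) and the number of genes tested in parentheses. Neutrophil lists lie far apart between sites with or without pre_Liver 4 and 5, whereas the liver medians of the mitosis, carcinoma, glycolysis and interferon lists move toward 0 without those 2 libraries.

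Genes of cell division had the same sign of difference and no call. For 24 genes of mitosis and the spindle checkpoint, which paclitaxel acts on, all 24 interaction values were positive (median 1.80) and none was called by limma in any of the 3 comparisons; leaving out 1 library gave 0 to 13 calls, and 9 were called with a replicate block. Genes of a list can vary together, and the median interaction of all genes was 0.38. Under the median of ratios, that of the mitosis list was 1.38, beside -0.03 for all genes. The fat pad median of the list was -0.88. The liver median was 0.94 over all libraries and -0.04 without pre_Liver 4 and 5. With the hepatocyte score as a covariate the liver median was 0.09 and the median interaction 1.07. Bub1b, a spindle checkpoint kinase, was at 29.8, 26.5 and 26.7 TPM in pre_SC and 12.8, 10.3 and 8.92 TPM in post_SC. Untreated liver tumors had 16.4, 31.3, 10.5, 2.59 and 4.42 TPM. Treated liver tumors had 32.9, 17.1, 17.4, 14.1 and 11 TPM. The fat pad groups were apart, pre_Liver 4 and 5 were the lowest liver libraries, and the interaction of 2.11 ± 0.77 (limma adjusted p = 0.122) was 1.28 without them. Mki67, Aurka, Cdca8 and Kif20a, also of dividing cells, had interactions of 1.82, 1.75, 1.97 and 2.04, none called. The 20 DNA replication genes were uncalled as well (median 1.28), with 4 of them under an unadjusted p of 0.05, as were 11 of the 24.

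Other lists that bear on treatment had at most 1 gene called in the interaction. Of 25 interferon response genes, 2 rose and 1 fell in the liver and none was called in the interaction by limma, with 24 of the 25 values above 0 (median 1.46; 0.74 without pre_Liver 4 and 5; 6 with an unadjusted p under 0.05), with 1 called under the median of ratios. Of 18 carcinoma epithelium genes, 4 rose in the liver and 1, the epithelial factor Ovol1, was higher in the interaction, with all 18 values above 0 (median 1.77; 0.84 and none called without pre_Liver 4 and 5). With the hepatocyte score as a covariate, the median interaction was 0.72 for the interferon genes and 0.64 for the carcinoma genes. Under the median of ratios it was 1.01 and 1.32, beside -0.03 for all genes, whose median in the main fit was 0.38. A liver rise was called for 13.2% of all genes. Of 18 genes of fatty acid and cholesterol synthesis, 8 fell and 1 rose in the liver and 1 fell in the fat pad, with none called in the interaction by limma (4 with an unadjusted p under 0.05). Of 13 immune checkpoint genes none was called in the interaction by limma (2 with an unadjusted p under 0.05), and the ligand Cd274 had 0.48 ± 0.72 (limma adjusted p = 0.673). The tubulin isotype Tubb3, often named in taxane resistance, was at 1.19, 2.1 and 2.9 TPM in pre_SC and 0.169, 0.114 and 0.0575 TPM in post_SC. Its liver groups overlapped and its interaction did not pass (1.66 ± 0.48, limma adjusted p = 0.0697), but it was called without pre_Liver 2 (limma adjusted p = 0.0211). The drug efflux pumps Abcb1a (-1.14 ± 0.50) and Abcb1b (1.08 ± 0.57) were not called, nor were Arg1 (-0.10 ± 0.92) and Nos2 (2.78 ± 1.00), enzymes of arginine metabolism in myeloid cells. The median standard error of the interaction over all genes was 0.424. In simulated data with these groups, changes were put into post_Liver only, in genes with a mean of at least 5 TPM, with noise independent between genes. There the same fit called 13.4% of true log2 differences of 1, 61.2% of 2 and 80.3% of 3. Rates for lower genes, or for genes that vary together, were not simulated.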

How the data were processed

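RNA of 16 tumor cell suspensions was sequenced after poly(A) selection. Per the submitters' processing notes, fastp and StringTie were used with GRCm38 (mm10); their versions, the aligner and the counting are not given in the sources used here. The authors deposited FPKM for the liver libraries and TPM for the fat pad libraries, with no counts, so the depth per library is unknown and no counting interval is given. Another table of the authors, of untreated libraries, holds batch-adjusted values (taken as a score) that go below 0; it was used only to see which libraries share a batch constant.

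Each column was rescaled to the same total over the 17426 genes found in both tables, after 24 date-like names were dropped, 61 hyphens restored, 301 leading letters removed and 1 repeated name left out. Each table was made separately by the authors, so a level set across sites rests on that rescaling. Genes with a mean of at least 1 TPM (13875) were tested on log2(TPM + 1), which understates changes of low genes, in 1 limma fit of 4 group means (limma 3.58.1 in R 4.3.3, eBayes with a trend), with Benjamini-Hochberg adjustment over all genes and a threshold of 0.05. Errors are standard errors. Classes follow the calls of the interaction and of both responses. The labels do not say whether replicate numbers pair libraries; deviations of same-number libraries correlated above 0.1 in 4 of 8 pairs, short of every pair, so the block was kept as an alternative. The fit was tested on simulated data, where 16 of 13675 unchanged genes were called. These stood beside 9 of 67, 41 of 67 and 53 of 66 genes changed by a log2 of 1, 2 and 3. In this simulation false calls were thus a larger share of all calls than the threshold of 0.05. Python 3.11.15 and pandas 2.3.3 did the rest.

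Named genes were, among genes called in the interaction with a group mean of at least 5 TPM, up to 6 with the largest absolute interaction in each opposite and one-site class, up to 6 same-way genes per direction with the largest smaller response, up to 4 members of each described list by interaction p, and a fixed set. The classes called the same way with unequal size held no gene, and up to 4 genes with the lowest interaction p and that pattern of signs were taken in their place. Members, lists and genes were chosen with earlier results of these data known. Gene coordinates are from GENCODE M21 (GRCm38) and promoters from RefSeq (GRCm38.p6). Alternatives covered scaling, pseudocount, filters, a hepatocyte covariate, a replicate block, weights, separate fits, threshold and left-out libraries.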

Additional observations from a re-analysis of the deposited data

Results flagged for a closer look

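In 20 of 224 groups of 5 libraries 1 library stood far from the other 4 by Dixon's criterion, which chance meets in about 1 in 20 groups. post_Liver 5 was the lowest library of its group for Mcpt8 (5.58 TPM), Ngp (1031 TPM), Prss57 (3.94 TPM), Pglyrp1 (185 TPM), Ms4a3 (29 TPM), Elane (135 TPM), Cd177 (38.2 TPM), S100a8 (920 TPM) and Nfe2 (10.3 TPM). post_Liver 5 was the highest library of its group for Tff1 (6.23 TPM). pre_Liver 2 was the highest library of its group for Gm40498 (5.63 TPM). pre_Liver 4 was the highest library of its group for Camp (69.7 TPM), Ms4a3 (9.34 TPM), Fcnb (8.05 TPM), Mmp8 (22.4 TPM), Gzmg (0.336 TPM) and Nfe2 (9.72 TPM). pre_Liver 2 was the lowest library of its group for Mup9 (704 TPM) and Mup3 (549 TPM). pre_Liver 1 was the highest library of its group for Mmp12 (105 TPM). In post_Liver 5 Epcam was at 347 TPM and Alb at 11071 TPM, within the range of the other treated liver libraries; the part of these markers was not tested.

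The response differed between the sites by the interaction test (limma, Benjamini-Hochberg adjusted p under 0.05 over all genes) for 72 of the 112 named genes. The interaction, in log2(TPM + 1), was above 0 for Mcpt8 5.22, Pf4 4.51, Ltb4r1 4.27, Ifitm1 3.39, Lipg 3.37, Reg3g 3.26, Gm40498 6.35, Mmp10 4.67, Mmp13 4.33, Gm43305 3.87, Gm40991 3.65, Car9 3.48, BC100530 7.87, S100a9 6.68, Ngp 6.66, Camp 6.51, Stfa2 6.4, Stfa3 6.38, Prss57 2.86 and Pglyrp1 3.31. It was also above 0 for Gm5483 5.15, Alox5ap 2.37, Crabp1 3.16, Ms4a3 5.02, Elane 5.51, Fcnb 4.4, Ctsg 5.85, Cd177 5, Mmp8 4.55, S100a8 6.35, Fpr2 3.4, Hdc 2.99, Mcpt4 4.27, Gp9 1.48, Ppbp 2.48, Gzmc 3.96, Gzmg 5.15, Gzmd 3.81, Gzmf 3.56 and Pgam1 1.64. Positive values were found too for Pfkl 2.23, Slc16a3 2.7, Slc2a1 2.66, P4ha1 2.76, Ero1l 2.49, Pfkfb4 2.02, Ndrg1 2.74, Lta4h 1.5, Gfi1 2.05, Cebpe 3.89, Spi1 1.86, Nfe2 2.98, Il1b 2.26 and Ly6g 2.69. It was below 0 for Depp1 -5.23, Mmd -2.87, Fibin -2.35, Tff1 -4.5, Rab17 -3.01, Angptl1 -2.92, Clec14a -2.88, Tnfrsf19 -2.73, Tmem100 -2.54, Gm44805 -6.41, Inmt -6.04, Mup9 -5.87, Mup-ps12 -5.62, Mup3 -5.4, Cyp3a44 -5.08, Rnf186 -1.98, Cldn5 -2.19 and Robo4 -2.12.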

How the results depend on the processing

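The interaction, called for 413 genes, was called for 972 with a hepatocyte score as covariate, 1435 with a replicate block, 1586 with array weights, 158 against pre_Liver 1 to 3, 5557 against pre_Liver 4 and 5, 260 with post_Liver 2 and 3 averaged and 1248 at an adjusted p under 0.1. The fat pad response (109) gave 191 with no filter, 178 on values as deposited, 480 with the covariate, 68 with the block, 1282 with weights, 885 fitted on its own and 180 at 0.1. The liver response (2633) gave 1595 under the median of ratios, 1707 under quantile normalization, 1689 rescaled without liver-function genes, 857 with the covariate, 5991 with the block, 994 with weights, 408 on its own, 251 against pre_Liver 1 to 3, 8375 against 4 and 5, 1140 with the averaged pair, 5137 at 0.1 and 1182 with a log2 change of at least 1. Opposite genes (13) numbered 7, 37, 3, 64, 8, 28 and 7 under the median of ratios, weights, pre_Liver 1 to 3, pre_Liver 4 and 5, the averaged pair, 0.1 and the log2 limit. Genes of the fat pad only (60) numbered 112 with no filter, 39 at a mean of 5 TPM, 106 as deposited, 235 with the covariate, 39 with the block, 493 with weights, 143 with each site on its own and 106 at 0.1. Genes of the liver only (280) numbered 156 under the median of ratios, 177 rescaled without liver-function genes, 1191 with the block, 545 with weights, 165 with each site on its own, 77 and 5058 against pre_Liver 1 to 3 and 4 and 5, 151 with the averaged pair and 918 at 0.1. Same-way genes (10) numbered 28 with the covariate, 42 with weights, 2 and 19 against the 2 parts of pre_Liver, 6 with the averaged pair, 24 at 0.1 and 4 with the log2 limit. Leaving out 1 library gave 92 to 2599 interaction calls, 14 to 115 fat pad calls, 678 to 6992 liver calls, 1 to 31 opposite, 12 to 65 fat pad only, 65 to 2223 liver only and 0 to 16 same-way genes. Whether replicate numbers pair libraries is not stated, and the replicate block moved the counts as given above: 4 of 8 same-number pairs had deviations correlated above 0.1 (from -0.141 to 0.736), and 3 of 8 untreated libraries correlated best with their own number. Over the named genes, 3107 values under alternatives kept their direction and side of the threshold, 260 lost the call, 89 gained it and none reversed; the causes were not tested. Depth is unknown, so low values carry no counting error.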
